A study of Mus musculus with 24 samples.

Results

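The glutamate receptor subunits and GABA-A receptor subunits described here were chosen by gene family, as the brain genes whose protein-coding symbols name an ionotropic glutamate receptor subunit (Gria, Grik, Grin and Grid) or a GABA-A receptor subunit (Gabra, Gabrb, Gabrg, Gabrd, Gabre and Gabrq). There were 33 of them among the 55469 genes of the brain table, 18 for glutamate and 15 for GABA. Grid2ip shares the first letters of its symbol with a receptor subunit but encodes a scaffold protein, and it was counted with the partner genes. The rule used no measured value.

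Brain RNA was sequenced from 4 genotypes of male mice on a C57BL/6N background, with 3 samples (replicates A, B and C) of each: WT, homozygous tRNA-Phe-1-1-/-, homozygous tRNA-Phe-2-1-/- or homozygous tRNA-Phe-3-1-/-, each knockout lacking both copies of the gene in its name. These are genes for the transfer RNA that carries phenylalanine to the ribosome. Per the study's methods, a single CRISPR-Cas9 guide injected into embryos made the deletions, which were separated by crossing to WT and bred on for at least 10 generations, so each tissue of a knockout carries the deletion. Controls were matched by age and litter, all mice ate normal chow, and the mice of the study were 10 weeks old. The samples are described as total brain RNA, and no brain region is given. The deposited extraction protocol opens with tissue pieces 3 mm on a side. The study's methods name such pieces for tissue homogenates and do not state there that RNA came from them. Where in the brain pieces were taken is not given. Levels of tRNA-Phe were not analysed here. The comparisons ask whether the loss of a tRNA-Phe gene goes with a different level of receptor subunit transcripts, and whether the 3 deletions differ from each other. Values are normalised counts, which are estimated reads per gene divided by a size factor for each sample.

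Ionotropic glutamate receptors are ion channels of 4 families. The AMPA receptors (Gria) carry most fast excitatory transmission, the NMDA receptors (Grin) let calcium in and are needed for many forms of synaptic plasticity, the kainate receptors (Grik) modulate synapses on both sides, and the delta subunits (Grid) organise synapses more than they conduct. GABA-A receptors are chloride channels built from 5 subunits, most often alpha, beta and gamma, and carry most fast inhibition in the brain. Subunit makeup differs between brain regions and shifts with age, as in the change from Grin2b towards Grin2a after birth.

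The subunits are membrane proteins with many phenylalanine codons, the codons that the deleted tRNA genes read. In the coding sequences of the GENCODE vM39 canonical transcripts, the share of phenylalanine codons was between 3.59% (Grin3b) and 6.02% (Gabrg1), with a median of 4.79%. The median over the 14877 protein-coding genes tested with a coding sequence was 3.60%, and 32 of the 33 subunits lay above it. The 1235 phenylalanine codons of the subunits were TTC in 57.3% of cases, against 54.9% over those genes. Shares differed between subunits, from 37.8% TTC in Gria2 to 80.4% in Grin2d. Both codons are read by tRNAs with the same anticodon, but the paper does not find them decoded alike. In the brain of a tRNA-Phe knockout also compared here, it reports ribosome stalling at TTT codons but not at TTC codons. The shares given here describe the sequences, and decoding was not tested.

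A stretch that nearly all glutamate receptor subunits share is the end of the third membrane segment, known as the lurcher motif, which lines the gate of the channel and ends in a phenylalanine. It was found once in 16 of the 18 subunits, and not in Grin3a or Grin3b. The codon for that phenylalanine was TTC in 15 subunits and TTT in 1, Grik2. The coding bases of the motif, 9 codons, are given 5′ to 3′ for subunits whose values are described most fully, with the phenylalanine codon in capitals.
Gria1 (codons 629 to 637): tcatacacagccaacctggctgccTTC
Gria2 (codons 636 to 644): tcctacacggctaacttagctgccTTC
Grik1 (codons 650 to 658): tcctacactgccaacctggctgccTTC
Grik2 (codons 650 to 658): tcgtataccgctaacctagccgccTTT
Grin2a (codons 644 to 652): agttacacagccaacctggctgccTTC
Grin2c (codons 642 to 650): agctacacggccaatctggcagccTTC
Grid1 (codons 647 to 655): tcctacacagccaacctggccgctTTC

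In GABA-A receptors the matching landmark is the Cys loop in the part of the protein outside the cell. It is given here as 15 codons that begin and end with a cysteine. It was found once in all 15 subunits. The loop held a phenylalanine codon in 11 of them, TTC in 7 and TTT in 4, and none in the 4 others, Gabrb2 and Gabrd among them. The loops of subunits that the results turn on are given with phenylalanine codons in capitals, where there are any.
Gabra2 (codons 166 to 180): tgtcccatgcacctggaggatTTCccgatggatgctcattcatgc
Gabrb2 (codons 160 to 174): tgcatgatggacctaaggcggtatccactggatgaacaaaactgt
Gabrd (codons 164 to 178): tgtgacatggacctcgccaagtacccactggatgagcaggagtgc

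Depth was 30365760 to 46225360 reads per brain sample, and the 33 subunits together held 0.507% to 0.625% of the reads. The libraries differed in brain region markers within genotypes. The summed thalamus markers (4 genes, Prkcd among them) were 11206 in tRNA-Phe-2-1-/- C and 7705 in tRNA-Phe-3-1-/- C and 552 to 2528 in the other 10 libraries. Hypothalamus markers (Avp, Oxt, Pmch and Hcrt) summed to 8499.8 in tRNA-Phe-3-1-/- C and to 5.73 to 522 elsewhere, with Avp or Hcrt at 0 in single tRNA-Phe-1-1-/- libraries. Olfactory bulb markers were at 3299.9 in tRNA-Phe-1-1-/- A and 3987 in tRNA-Phe-3-1-/- B against 167 to 707 elsewhere. Striatal markers ranged from 2974.5 to 35718, and oligodendrocyte markers were at 31821 to 58895 in tRNA-Phe-1-1-/- and at 83328 to 97780 in WT. The pan-neuronal sum was lowest, 61646, in tRNA-Phe-3-1-/- C and 87474 to 121001 elsewhere. The labels give no region. Counts of called genes are given with and without the 2 libraries richest in thalamus markers where they differ. Fold changes without these libraries are given for some genes only, and that of Grin2a was not followed that way.

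**Figure D1:**
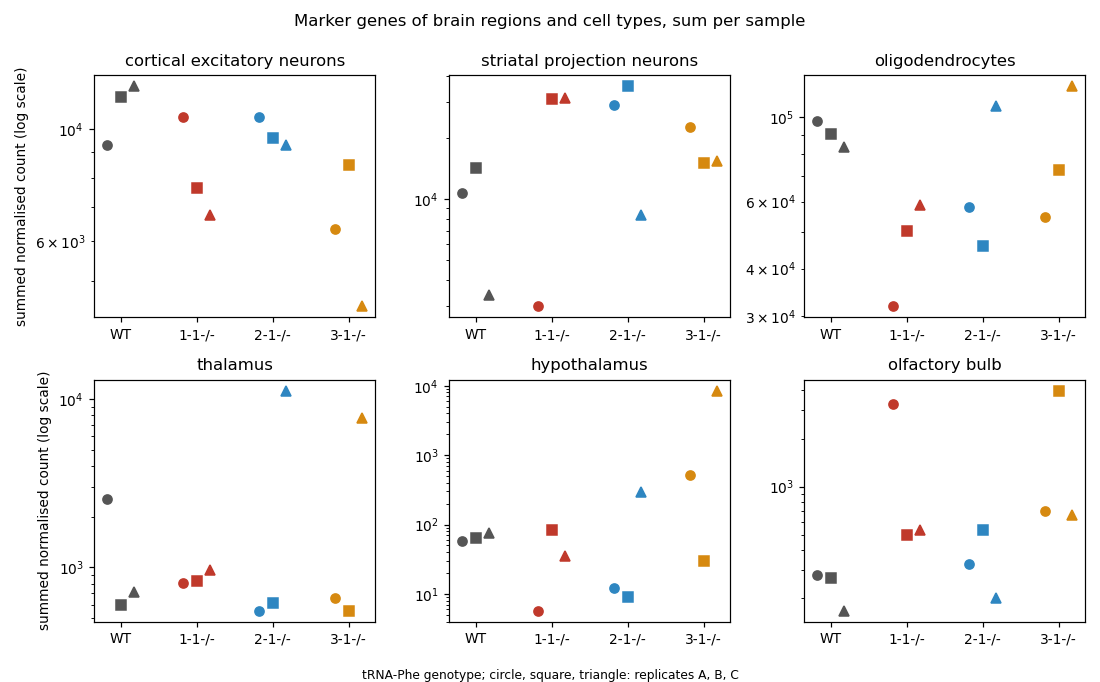
Summed normalised counts (log scale) of marker genes for 6 brain regions or cell types in each of the 12 brain samples, by genotype; each symbol is 1 sample. The triangles (replicate C) of the tRNA-Phe-2-1-/- group and the tRNA-Phe-3-1-/- group stand at 11206 and 7705 for thalamus, and the cortical excitatory sum is 4442 to 8498 in tRNA-Phe-3-1-/- against 9313 to 12173 in WT.

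In WT, levels were compared between subunits per length, as normalised counts per kilobase of the canonical transcript. Gria2, which makes AMPA receptors impermeable to calcium once edited, was highest at 3357 ± 220 (SD, n = 3) counts per kilobase. A middle group of Grin1 (2048 ± 277), Gria3 (1824 ± 372), Gria1 (1775 ± 151) and Grin2a (1702 ± 112) differed by less than their SDs from one of these to the next on this scale. Below them on this scale came Grin2b (1466 ± 247), Gabrd (1253 ± 130), Gabrb2 (1086 ± 16.7), Gria4 (977 ± 49.0) and Gabra4 (969 ± 40.1), and then 15 subunits from Gabra3 (705 ± 141) to Grik4 (91.1 ± 9.90). At the low end of this scale stood Grin2d (19.7 ± 4.72), Gabrq (19.7 ± 7.63), Gabra6 (10.1 ± 8.03), Grin3b (1.92 ± 0.268) and Gabre (1.01 ± 0.0357). Grin3b and Gabre had a mean normalised count under 10 and were not tested, which left 31 subunits. In the liver table, which was normalised on its own, 6 of the 33 subunits had a mean of at least 10, and Grik5 was highest with a mean normalised count of 129.

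By the ratio of the highest to the lowest sample, the subunits varied about as much as all genes tested, which were not matched to them for level. The highest of the 12 samples was under 1.5 times the lowest for 7 of the 31 tested subunits and under 2 times for 22, and the median of this ratio was 1.73, against 1.75 over all 19228 genes tested. The library tRNA-Phe-3-1-/- C held the highest value of 8 subunits and the lowest of 9, more than any other library. Over all genes tested it held the highest value of 15.9% and the lowest of 17.7%. Gabrq was the most uneven, at 743 in that library and 23.6 to 122 in the other 11, followed by Grin2d (363 against 73.9 to 168) and Gabrg1 (2702 against 812 to 1468). Gabra6, a subunit of cerebellar granule cells, was at 215 there and at 0 to 37.6 elsewhere, and the summed granule cell markers were also highest in that library, 8530.4 against 1995 to 6266. These markers did not move together. Cbln1, Cbln3 and Zic1 were highest in that library, and Neurod1 and Etv1 in WT C. Zic1 held 4413 of the sum there and was also at 3540 in tRNA-Phe-2-1-/- C, where Gabra6 was at 30.3. The part of these other cells in the values was not tested.

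No subunit passed the threshold (adjusted p of 0.05, limma with Benjamini-Hochberg adjustment over all 19228 genes) in any comparison of a knockout with WT. Of the 31 tested, 0 were called in tRNA-Phe-1-1-/- against WT, where 1.05% of all genes were called, and 0 in tRNA-Phe-2-1-/- and in tRNA-Phe-3-1-/- against WT, where 0.00% and 0.00% of all genes were. At an unadjusted p under 0.05 there were 7, 4 and 10 subunits, or shares to be read against 15.9%, 5.57% and 12.3% of all genes. The median log2 fold change of the subunits was -0.01, -0.03 and 0.06, and that of all genes was 0.00 in each comparison. Leaving out single libraries, the subunit medians ranged from -0.05 to 0.03, from -0.06 to -0.01 and from -0.05 to 0.10. The first turned above 0 without WT B, WT C or tRNA-Phe-1-1-/- C, and the last below 0 without WT A or tRNA-Phe-3-1-/- B. The median size of the change, regardless of sign, was 0.17, 0.10 and 0.24 on the log2 scale for the subunits and 0.17, 0.12 and 0.15 for all genes. These 3 comparisons share the same WT samples, so their values are given side by side and their likeness was not tested. The labels call the samples replicates and the study describes separate mice, so the p-values measure the spread between these samples. In tissue, fewer cells of a type and less RNA per cell cannot be told apart.

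Gabrb2 encodes a beta subunit common at adult synapses, and it lies on chromosome 11 (GRCm38.p6, 42419515 to 42632591). It was measured at 8159, 8321 and 8409.9 in WT and 8064, 8272 and 8098 in tRNA-Phe-2-1-/-, which overlap. In tRNA-Phe-1-1-/- it stood at 7088, 7134 and 6079, and in tRNA-Phe-3-1-/- at 7030.0, 6685 and 6684, so these 6 samples lay below all WT and tRNA-Phe-2-1-/- samples. The log2 fold change against WT was -0.30 ± 0.07 (SE; adjusted p = 0.0702, limma) in tRNA-Phe-1-1-/-, -0.03 ± 0.07 (adjusted p = 0.990, limma) in tRNA-Phe-2-1-/- and -0.29 ± 0.07 (adjusted p = 0.178, limma) in tRNA-Phe-3-1-/-.

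Gabra6 was at 37.6, 2.11 and 36.1 in WT and at 0, 2.08 and 0 in tRNA-Phe-1-1-/-, too low for a fold change, and these groups were separated by the gap from 2.08 to 2.11 alone.

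Cortical excitatory neuron markers moved with Gabrb2 in part. The 5 markers (Tbr1, Neurod6, Rorb and Cux2 among them), none of them at 0 in any library, summed to 9313 to 12173 in WT, 6751 to 10573 in tRNA-Phe-1-1-/-, 9324 to 10591 in tRNA-Phe-2-1-/- and 4442 to 8498 in tRNA-Phe-3-1-/-. In tRNA-Phe-1-1-/- 4 of the 5 had a mean below WT, in tRNA-Phe-2-1-/- 3 and in tRNA-Phe-3-1-/- all 5. Rorb, a transcription factor of cortical layer 4, was at 3656 to 3799.5 in WT and 3718 to 3953 in tRNA-Phe-2-1-/-, and at 1890.0 to 2487 in tRNA-Phe-1-1-/- and 2414 to 2677 in tRNA-Phe-3-1-/-. It therefore separated the same 6 samples from the other 6 as Gabrb2 did. Rorb was chosen after its values were seen, and the part of these neurons in the subunit values was not tested.

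**Figure D2:**
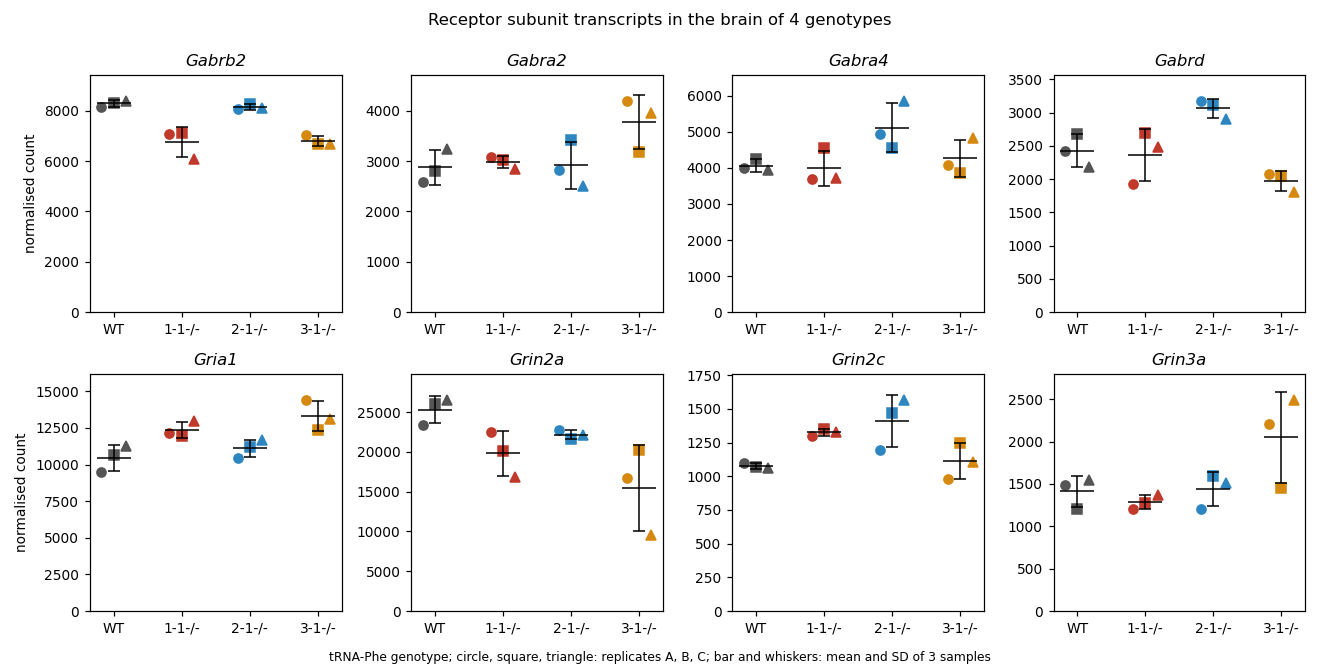
Normalised counts (y axis, from 0) of 8 subunits in each brain sample, by tRNA-Phe genotype (x axis); symbols are samples, bars and whiskers the mean and SD of 3. Gabrb2 is below all WT samples (lowest 8159) in every sample of tRNA-Phe-1-1-/- as of tRNA-Phe-3-1-/-, and all 9 knockout samples of Grin2a lie below the WT samples (lowest 23418). The share of all genes with either pattern was not counted.

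On chromosome 5 (GRCm38.p6, 70751047 to 72149572), Gabrg1, Gabra2, Gabra4 and Gabrb1 form a cluster. The log2 fold changes of these genes against WT ran from -0.03 to 0.20 in tRNA-Phe-1-1-/-, from -0.08 to 0.32 in tRNA-Phe-2-1-/- and from 0.06 to 0.76 in tRNA-Phe-3-1-/-. Gabra2, an alpha subunit of the young brain and of the striatum, was 4201, 3173 and 3954 in tRNA-Phe-3-1-/- against 2581, 2796 and 3249.5 in WT, and the groups overlapped. Gabra4, an alpha subunit that joins Gabrd outside the synapse, was 4935, 4549 and 5869.7 in tRNA-Phe-2-1-/- against 4001, 4259 and 3943 in WT, with no overlap, or 0.32 ± 0.12 on the log2 scale (SE; adjusted p = 0.892, limma). Gabra5, an alpha subunit of the hippocampus on chromosome 7, was at -0.27, -0.39 and 0.06 on the log2 scale against WT in the 3 knockouts, in order of their names. A further cluster, on the X chromosome (72256926 to 72842607), holds Gabre, Gabra3 and Gabrq, and Gabre did not exceed 36 counts in any sample.

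Gabrd stands alone on chromosome 4 (155384979 to 155398098) and encodes a subunit of receptors outside the synapse. Its counts were 3179, 3109 and 2898 in tRNA-Phe-2-1-/- and 2078, 2047 and 1805 in tRNA-Phe-3-1-/-, with WT (2425, 2679 and 2175) between them and tRNA-Phe-1-1-/- at 1922, 2685 and 2475. The 2 knockouts at the ends lay on opposite sides of all WT samples. The difference between them, 0.63 ± 0.12 on the log2 scale (SE; unadjusted p = 0.00028, adjusted p = 0.295, limma), had the lowest unadjusted p of any subunit in any of the 6 comparisons, in one where 0.00% of all genes were called.

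Among the AMPA receptor subunits, Gria1 was the one whose knockout samples lay above WT. It had 9491, 10653 and 11242 normalised counts in WT, 12178, 11939 and 13002 in tRNA-Phe-1-1-/- and 14435, 12376 and 13125 in tRNA-Phe-3-1-/-. These 6 samples lay above all WT samples, while tRNA-Phe-2-1-/- (10481, 11202 and 11649) overlapped with WT. The log2 fold change was 0.24 ± 0.08 (adjusted p = 0.187, limma), 0.09 ± 0.08 (adjusted p = 0.961, limma) and 0.35 ± 0.08 (adjusted p = 0.179, limma) in the 3 knockouts, in order of their names. Gria2 lay within the range of WT in 7 of 9 knockout samples. It was at 33533 to 38138 in WT, 36265 to 36575 in tRNA-Phe-1-1-/-, 37898, 35546 and 28399 in tRNA-Phe-2-1-/- and 36759, 37819 and 26817 in tRNA-Phe-3-1-/-. The 2 low values are those of the libraries richest in thalamus markers. Gria4 was lower than WT in every tRNA-Phe-1-1-/- sample, at -0.25 ± 0.08 (adjusted p = 0.154, limma), and Gria3 overlapped with WT in each knockout.

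Among the NMDA receptor subunits, Grin2a, which gives adult receptors their fast decay, had 23418, 25945 and 26556 normalised counts in WT and 16669, 20203 and 9511 in tRNA-Phe-3-1-/-. It was at 22499, 20136 and 16821 in tRNA-Phe-1-1-/- and at 22702, 21594 and 22070.0 in tRNA-Phe-2-1-/-, so all 9 knockout samples lay below WT. The log2 fold change was -0.78 ± 0.22 (adjusted p = 0.222, limma) in tRNA-Phe-3-1-/-, where replicate C was by far the lowest. In tRNA-Phe-1-1-/- it was -0.36 ± 0.22 (adjusted p = 0.450, limma) and in tRNA-Phe-2-1-/- -0.19 ± 0.22 (adjusted p = 0.966, limma). Grin2b, which predominates early in life, ranged from 29322 to 41245 in WT and from 24666 to 46349.7 in the knockouts, and each knockout overlapped with WT. Grin1, the subunit that every NMDA receptor needs, was at 7506 to 9811 in WT and 6285 to 9032 in the knockouts.

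Grin2c, a subunit of cerebellum, thalamus and glia, was very even in WT (1099, 1068 and 1063) and higher in tRNA-Phe-1-1-/- (1298, 1354 and 1328) and tRNA-Phe-2-1-/- (1194, 1470.1 and 1569), with no overlap. Against WT its log2 fold change was 0.30 ± 0.11 (adjusted p = 0.207, limma) and 0.38 ± 0.11 (adjusted p = 0.892, limma), and without the 2 libraries richest in thalamus markers the second was 0.30. In tRNA-Phe-3-1-/- (981, 1248 and 1105) it overlapped with WT. Grin3a, a subunit that lowers the calcium flow of NMDA receptors, had 2204, 1447 and 2495 counts in tRNA-Phe-3-1-/- and 1205, 1279 and 1375 in tRNA-Phe-1-1-/-, with 1202 to 1592 in the other 2 genotypes. In tRNA-Phe-1-1-/- against tRNA-Phe-3-1-/- its difference was -0.64 ± 0.18 on the log2 scale (adjusted p = 0.103, limma), or -0.47 without the 2 libraries richest in thalamus markers.

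The 5 kainate subunits had log2 fold changes against WT between -0.21 and 0.43, and the 2 delta subunits between -0.08 and 0.24. Grik2, a kainate subunit of principal neurons, was 4708, 4963 and 5106 in tRNA-Phe-3-1-/-, above the WT samples at 4102, 3740.3 and 3202. Its log2 fold change was 0.43 ± 0.19 (adjusted p = 0.395, limma). Grid1, a delta subunit that binds cerebellin, had 2139, 2321 and 2195 counts in WT and 2183 to 2777 in the knockouts. Grik1, a kainate subunit found in many interneurons, was lower in tRNA-Phe-1-1-/- (513, 622 and 640.3) than in tRNA-Phe-3-1-/- (958, 671 and 1024), by 0.56 ± 0.17 on the log2 scale (adjusted p = 0.117, limma). Without the 2 libraries richest in thalamus markers, its log2 fold change in this comparison was -0.44.

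The subunits were also counted by whether all samples of a knockout lay on 1 side of all WT samples. In tRNA-Phe-1-1-/-, 2 of 31 lay above WT (Gria1 and Grin2c) and 6 below (Gria4, Grin2a, Gabra6 and Gabrb2 among them), where 12.8% of all genes lay above and 12.4% below. In tRNA-Phe-2-1-/-, 3 lay above (Grin2c, Gabra4 and Gabrd) and 2 below (Grin2a among them), where 6.02% and 5.43% of all genes did. For tRNA-Phe-3-1-/-, 3 lay above (Gria1, Grik2 and Gabrg1) and 6 below (Grik4, Grin2a, Gabrb2 and Gabrd among them), where 7.93% and 8.48% of all genes did. Shares of all genes for patterns over more than 1 knockout, such as those of Gabrb2, Gria1 and Grin2a, were not counted.

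Between the knockouts, 0 of the 31 subunits were called in tRNA-Phe-1-1-/- against tRNA-Phe-2-1-/-, tRNA-Phe-1-1-/- against tRNA-Phe-3-1-/- or tRNA-Phe-2-1-/- against tRNA-Phe-3-1-/- by limma, where 0.530%, 2.11% and 0.00% of all genes were. The numbers at an unadjusted p under 0.05 were 3, 7 and 10, to be read against 13.7%, 19.5% and 9.93% of all genes. In these 3 comparisons 1, 2 and 4 subunits lay above without overlap and 3, 5 and 3 below, where 20.8%, 23.5% and 12.7% of all genes did not overlap in either direction. Gabrb2 was lower in tRNA-Phe-1-1-/- than in tRNA-Phe-2-1-/- by 0.27 ± 0.07 on the log2 scale (adjusted p = 0.107, limma). Without tRNA-Phe-3-1-/- B, Grik1 and Grin3a were called in tRNA-Phe-1-1-/- against tRNA-Phe-3-1-/- (adjusted p = 0.0415 and 0.0237, limma, where 2.14% of all genes were called), and over all alternatives their adjusted p ranged from 0.0332 to 0.317 and from 0.0131 to 0.283. The F-test for any difference among the 4 genotypes called 0 of 31 subunits at the adjusted threshold (0.634% of all genes) and 12 at an unadjusted p under 0.05 (17.6% of all genes), with Gabrb2 lowest (adjusted p = 0.0754, limma).

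The number of calls depended on the test. In tRNA-Phe-1-1-/- against WT, limma called 1 subunit with quantile normalisation (0.947% of all genes), without tRNA-Phe-3-1-/- C (1.29%) and without both libraries richest in thalamus markers (2.49%). DESeq2, run on reads recovered from the normalised counts, called 2 subunits in tRNA-Phe-1-1-/- against WT (Gabrb2 among them, with 4.56% of all genes called) and 0 in tRNA-Phe-2-1-/- against WT (0.109% of genes). It called 4 in tRNA-Phe-3-1-/- against WT (Gria1, Gabrb2 and Gabrq among them, with 1.94% of genes). Gabrq was at 122, 34.0 and 743 in tRNA-Phe-3-1-/- A, B and C, so its high mean there rests mainly on replicate C. Between knockouts DESeq2 called 1 in tRNA-Phe-1-1-/- against tRNA-Phe-2-1-/- (Gabrb2, 3.50%), 3 in tRNA-Phe-1-1-/- against tRNA-Phe-3-1-/- (Grik1, Grin3a and Gabrq, 6.86%) and 2 in tRNA-Phe-2-1-/- against tRNA-Phe-3-1-/- (Gabrb2 and Gabrd, 0.865%). Its test of any difference called 9 subunits (8.25% of genes). The quasi-likelihood test of edgeR on the same reads called 0 subunits in each comparison. It called 0.973%, 0.00% and 0.00% of all genes in the 3 knockouts against WT, 0.562%, 1.83% and 0.00% between the knockouts in the same order and 0.744% for any difference.

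The balance between related subunits was examined as 6 ratios within a sample, which do not depend on the size factors. Each was tested over the 4 genotypes with an exact permutation test (15400 partitions of the 12 samples) and adjusted over the 6 ratios. The 2 described here are Grin2a to Grin2b and Gria2 to Gria1.

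For Grin2a to Grin2b the log2 ratio was -0.32, -0.67 and -0.44 in WT and between -1.37 and -0.69 in the 9 knockout samples, with means of -0.95, -0.89 and -1.09 in the 3 knockouts, in order of their names. Over the 4 genotypes the ratio was just past the threshold (exact permutation p = 0.0165, adjusted p = 0.0495). The ratios were chosen with earlier results of these data known, so this call is not an independent test and is given as a description. Leaving out any library except WT B, tRNA-Phe-2-1-/- B and tRNA-Phe-3-1-/- B ended this call, with adjusted p-values (exact permutation) of 0.161 without WT A, 0.0986 without WT C, 0.0521, 0.0877 and 0.0861 without tRNA-Phe-1-1-/- A, B and C, 0.0918 and 0.0610 without tRNA-Phe-2-1-/- A and C, and 0.0703 and 0.0806 without tRNA-Phe-3-1-/- A and C. Over all alternatives its adjusted p ranged from 0.0273 to 0.161. Each test asks about the 4 genotypes together. Gria2 to Gria1 had means of 1.79, 1.56, 1.60 and 1.33 in WT and the 3 knockouts (exact permutation p = 0.134, adjusted p = 0.160). A single knockout against WT, 3 samples against 3, cannot give an exact permutation p under 0.1.

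**Figure D3:**
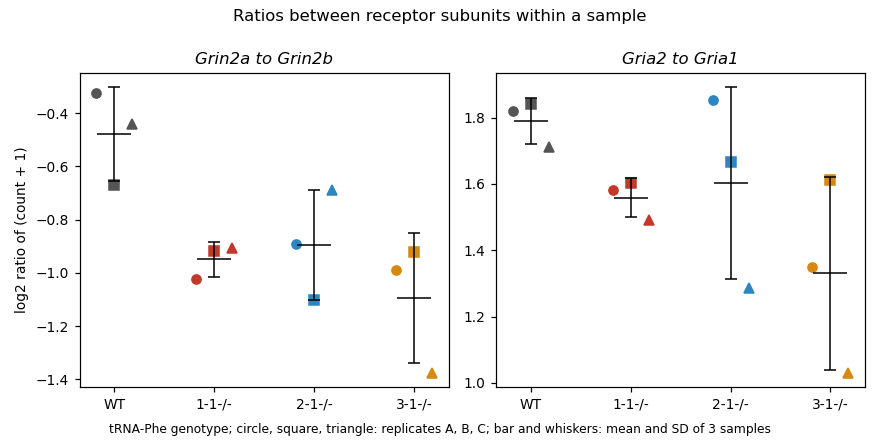
Log2 ratio of normalised counts (+ 1) of 2 pairs of subunits in each brain sample, by tRNA-Phe genotype; bars and whiskers are the mean and SD of 3 samples. For Grin2a to Grin2b the 3 WT samples, at -0.67 or more, lie above all 9 knockout samples, and for Gria2 to Gria1 the tRNA-Phe-2-1-/- samples overlap with WT while those of the other 2 knockouts lie below it.

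The 64 partner genes cover auxiliary subunits, scaffolds and kinases, GABA-A receptor anchoring, transmitter synthesis and transport, metabotropic receptors and glycine receptors. All 64 were tested, and limma called 0 in each knockout against WT, where 1.05%, 0.00% and 0.00% of all genes were called. The median log2 fold change was 0.07, -0.01 and -0.01, with 40, 31 and 29 genes above 0. Of all 19228 genes, 9588, 9550 and 9688 were above 0. The only call in any comparison was Glul, glutamine synthetase of astrocytes, which supplies neurons with glutamine for new glutamate. It was at 52869.5, 51885 and 52003 in tRNA-Phe-1-1-/- and 34378, 44368 and 38167 in tRNA-Phe-3-1-/-, with 45451 to 49171 in WT and 40632 to 44534 in tRNA-Phe-2-1-/-. It was higher in tRNA-Phe-1-1-/- than in tRNA-Phe-3-1-/- by 0.43 ± 0.09 on the log2 scale (adjusted p = 0.0436, limma), where 2.11% of all genes were called. This call was lost without both libraries richest in thalamus markers (adjusted p = 0.109, limma) and without any 1 of 11 libraries, and it remained without tRNA-Phe-3-1-/- B (0.0220). Over all alternatives its adjusted p ranged from 0.000642 to 0.186. Astrocyte markers (Gfap, Aqp4 and Aldh1l1) summed to 9219.7 to 9708 in tRNA-Phe-1-1-/- and 8509.8 to 11869.9 in tRNA-Phe-3-1-/-, and their part in the result was not tested.

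In each partner list the gene with the lowest F-test p was taken. For the auxiliary subunits this was Cacng5, a relative of stargazin, at 160.3 to 279 in WT, 414 to 567 in tRNA-Phe-1-1-/-, 253 to 581 in tRNA-Phe-2-1-/- and 412, 949.5 and 747 in tRNA-Phe-3-1-/-. Its log2 fold change was 1.15 ± 0.35 (adjusted p = 0.142, limma), 0.86 ± 0.35 (adjusted p = 0.894, limma) and 1.63 ± 0.35 (adjusted p = 0.158, limma). Without the 2 libraries richest in thalamus markers, that of tRNA-Phe-3-1-/- against WT was 1.54. Homer1, a scaffold of glutamate synapses whose short form is induced by activity, was at 14258 to 19829 in WT and 10789.6, 10845 and 5582 in tRNA-Phe-3-1-/-, or -0.91 ± 0.25 on the log2 scale (adjusted p = 0.222, limma). In tRNA-Phe-1-1-/- it was at 17343 to 18035, within the range of WT. Glra2, a glycine receptor subunit, was at 360.1 to 426 in WT and 670.2, 545 and 948 in tRNA-Phe-3-1-/-, a log2 fold change of 0.87 ± 0.22 (adjusted p = 0.211, limma). Grm3, a metabotropic receptor of astrocytes and neurons, and Gabarap, which carries GABA-A receptors, led the remaining lists with F-test adjusted p-values of 0.320 and 0.403 (limma).

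**Figure D4:**
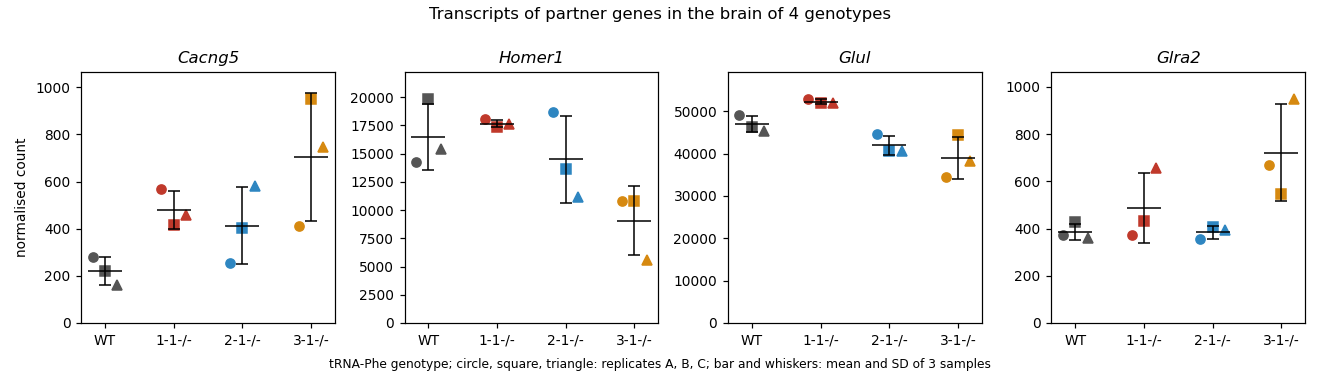
Normalised counts (y axis, from 0) of 4 partner genes in each brain sample, by tRNA-Phe genotype; symbols are samples, bars and whiskers the mean and SD of 3. Homer1 is lowest in tRNA-Phe-3-1-/-, at 5582 to 10845, and Cacng5 lies above the WT range of 160.3 to 279 in tRNA-Phe-1-1-/- as in tRNA-Phe-3-1-/-.

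The share of phenylalanine codons was set beside the fold changes of the subunits. Spearman's rho between the 2, over the 31 tested subunits, was -0.18 in tRNA-Phe-1-1-/-, -0.46 in tRNA-Phe-2-1-/- and -0.08 in tRNA-Phe-3-1-/- against WT. Genes are not independent replicates, the subunits share sequence, and the fold changes share libraries, so these values are a description.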

How the data were processed

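The study's methods and labels name Trim Galore for trimming, STAR for alignment to GRCm38.p6, Salmon for quantification with the strand stated and corrections for sequence and GC bias, and DESeq2 for size factors. The deposited brain values are a signal of normalised counts per gene. In each sample 100% of them were whole multiples of 1 step (tolerance 1e-06 of the step), which gave reads and depth. Deposited result tables hold the authors' own comparisons (mean, log2 fold change, error and s-value) and were not used.

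The main test was limma 3.58.1 (R 4.3.3, variance trend) over the 12 brain samples, on the log2 scale with a pseudocount of 1 and 19228 genes with a mean of at least 10. P-values are two-sided, with Benjamini-Hochberg adjustment per comparison and a threshold of 0.05. Fold changes on this scale understate those of low genes. Symbols were taken from GENCODE vM39 (93.2% of Ensembl identifiers matched), coding sequences and transcript lengths from its canonical transcripts, and positions from RefSeq for GRCm38.p6. In simulated counts of tRNA-Phe-1-1-/- against WT (19118 genes), 178 of 200 changed genes were recovered, with 8 false calls. The planted changes were 2-fold or more, with the same relative spread for all genes and no region differences between libraries. This recovery does not describe smaller changes, such as most of those given for the subunits. The subunits, gene lists and ratios were chosen with earlier results of these data known. Given in full, where reported, are called subunits and partners, the 3 lowest p per knockout against WT, the 2 lowest per pair of knockouts, the highest subunit of each family and the lowest F-test p of each partner list. Rorb and other values, such as those of Grin2a, were added after they were seen. Reads were also tested with edgeR 4.0.16 (187 genes called in tRNA-Phe-1-1-/- against WT, 202 by limma) and DESeq2 1.42.0 (874). Exact permutation tests were written for this purpose in Python 3.11.15, and scipy 1.17.1 gave Spearman's rho. Some subunits, ratios and sequences are not reported here.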

Additional observations from a re-analysis of the deposited data

How the results depend on the processing

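Alternatives were other pseudocounts (0.1 and 5), other filters, quantile normalisation, TMM rescaling, no variance trend, only the 6 samples compared, a replicate block, edgeR, DESeq2 and leaving out each library. Leaving out both libraries richest in thalamus markers was added after seeing the data. Fold changes were followed through these alternatives only for subunits with the lowest p in a comparison and for the named partners. None of those followed turned its direction. Other fold changes given, such as those of Grin2a and Gria4, were not followed. Of the values followed, 377 stayed on their side of the threshold, 14 passed it and 17 no longer did, and the cause was not tested. Subunits called by limma rose from 0 to 1 in tRNA-Phe-1-1-/- against WT with quantile normalisation and without both libraries, and were 0 to 1 leaving out single libraries. In tRNA-Phe-1-1-/- against tRNA-Phe-3-1-/- they were 0 to 2 leaving out single libraries. DESeq2 called 2, 4, 1, 3, 2 and 9 subunits where limma called 0 (tRNA-Phe-1-1-/- against WT, tRNA-Phe-3-1-/- against WT, the 3 pairs of knockouts in the order given in the report, and any difference). Among partners DESeq2 called 1, 3, 1, 2, 2 and 5 in the same comparisons. There it called 4.56%, 1.94%, 3.50%, 6.86%, 0.865% and 8.25% of all genes. The single limma call, Glul, became 0 calls with no filter, quantile normalisation, no variance trend, only 6 samples and without both libraries, and partner calls were 0 to 1 leaving out single libraries, as they were for any difference. The median log2 fold change of the subunits moved by more than its spread between samples (0.0530) in 10 of 144 settings, and the medians lay near 0 and changed sign in some. Leaving out single libraries, they ran from -0.05 to 0.03, -0.06 to -0.01 and -0.05 to 0.10 in the 3 knockouts against WT and from -0.10 to 0.03, -0.09 to -0.02 and -0.12 to 0.11 between knockouts.

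A replicate block was also tried, as same letters deviated together in part. The 18 same-letter correlations ran from -0.16 to 0.49, and different-letter ones from -0.36 to 0.33. In all, 7 of 12 samples were closest to their own letter. What samples of 1 letter share is not stated. The block left the subunits called by limma at 0 in every comparison. In tRNA-Phe-1-1-/- against tRNA-Phe-3-1-/- it called 1 partner, Homer1 in place of Glul, where 1.84% of all genes were called. With the block, exact permutation p was 0.0434 (adjusted 0.0755) for Grin2a to Grin2b. Grin2a to Grin2b had p = 0.0197 (adjusted 0.0565) with quantile normalisation and p = 0.0411 (adjusted 0.0707) without both libraries (exact permutation), so the call was lost in each of these settings. Leaving out single libraries, the exact permutation p ranged from 0.00909 to 0.0549 for Grin2a to Grin2b (adjusted 0.0273 to 0.161). Depth limits mainly Gabra6, Gabre, Grin3b and Gabrq, which are under 50 counts in most samples.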
